A study of Homo sapiens with 4 samples.

Results

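The regions described here are broad stretches of accessible chromatin that were found repeatedly in OVSAHO cells although no narrow peak was called inside them. OVSAHO is an established ovarian cancer cell line. Accessibility was assayed by ATAC-seq, whose transposase inserts sequencing adapters into open DNA. Broad peaks of the 4 libraries on chromosomes 1 to 22 were joined into 1 region on an overlap of at least 1 bp, which gave 36146 regions. Of these, 5615 (15.5%) held broad peaks from 3 or 4 libraries and are called reproducible here. The set consists of the 2127 reproducible regions that overlapped no narrow peak of any library, 37.9% of the reproducible ones, where 78.4% of all 36146 merged regions overlapped none. They are called narrow-free regions below, and the other 3488 reproducible regions overlapped at least 1 narrow peak. The regions were chosen by the peak calls themselves, so numbers of calls and peak strength are given as descriptions, without a test.

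There were 2 groups of 2 libraries each. The test cells are labelled as stable for SMARCA2 with SMARCA4 knocked down, and are named OVSAHO-A2-siA4. The control cells are labelled WT and are named OVSAHO-Ctrl-siNC. The medium of test and control cells alike held carboplatin, a DNA-damaging platinum compound, at 25 µM for 2 days, so no comparison with undrugged cells was made. All cells are of 1 line, and the labels do not say whether replicates were separate cultures, so p-values measure only the spread between these libraries, which may be technical. SMARCA2 and SMARCA4 levels, and markers of the cell line, were not analysed here. Values for a group are given for replicate 1 and then replicate 2.

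SMARCA2 and SMARCA4 are the alternative ATPase motors of SWI/SNF complexes, which slide or evict nucleosomes. In ATAC-seq, short fragments come from DNA between nucleosomes, as at active promoters and enhancers, and longer fragments span 1 or more nucleosomes. Per the file headers, the narrow peaks were called on a nucleosome-free subset of the fragments and the broad peaks on the full set. Regions are given by position on hg19, because no hg19 gene annotation or genome sequence was used here.

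The libraries differed in ways that bear on the set. Broad calls rested on 22432549 to 31515662 fragments per library and narrow calls on 6146272 to 15828837, both with the most in control 1. The nucleosome-free subset was 50.2% of all fragments in control 1 and 27.4% to 29.6% elsewhere. The headers give a fragment size of 131 bp for the broad calls of control 1 and of 178 to 182 bp for the other libraries. The broad lists held 8654 and 13708 peaks for the test libraries and 18280 and 13043 for the controls. The narrow lists held 3311 and 4075 peaks for the test libraries and 10217 and 5315 for the controls. Control 1 therefore stood apart, and results are given by the library that lacks a call.

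The share of regions without a narrow peak was smaller the more libraries had called the broad region. It was 89.0% of the 25500 regions of a single library and 69.8% of the 5031 regions of 2 libraries. It was 41.9% of the 4523 regions of 3 libraries (95% exact binomial interval 40.5 to 43.4) and 21.2% of the 1092 regions of all 4 (18.8 to 23.7). These intervals, like all those below, cover counting error only. Just outside the rule lay the 3510 narrow-free regions of 2 libraries, with a median width of 483 bp. The median was 580 bp for the 1896 narrow-free regions of 3 libraries and 785 bp for the 231 of all 4.

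Regions that the rule left out often had a narrow peak in 1 library only. Of the 5615 reproducible regions, 1526 (27.2%) overlapped narrow peaks of 1 library, 926 of 2, 714 of 3 and 322 of all 4. Control 2 was the only library with a narrow peak in 631 regions, test 1 in 332, control 1 in 320 and test 2 in 243. Control 1 had the longest narrow list, yet its narrow peaks overlapped the fewest reproducible regions, 892. Those of the other libraries overlapped 1776 to 2312.

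Most narrow-free regions, like most other reproducible regions, were ones that control 1 did not call. Of the 2127 regions, 1471 (69.2%) had broad peaks in both test libraries and control 2 and none in control 1. Another 259 lacked a call from test 1, 104 from control 2 and 62 from test 2, and 231 (10.9%) were called in all 4 libraries. Counted by library, the test libraries had a broad peak in 1868 and 2065 of them and the controls in 656 and 2023. Of the 3488 reproducible regions with a narrow peak, 2280 (65.4%) lacked a call from control 1 only. Of all 3488, the test libraries had called 3262 and 3457 and the controls 1208 and 3398. In both sets control 1 alone was low, so the groups overlapped. The narrow-free regions took up 21.6% and 15.1% of the test broad lists and 3.63% and 15.5% of the control lists, so the longest list contributed least. Of the 1896 narrow-free regions of 3 libraries, 77.6% were absent from control 1, against 82.9% of all 4523 regions of 3 libraries. The shares of the 4523 absent from test 1, control 2 and test 2 were 10.7%, 4.29% and 2.06%. A rule that leaves out control 1 and asks for calls in the other 3 libraries gave 1838 regions.

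**Figure D1:**
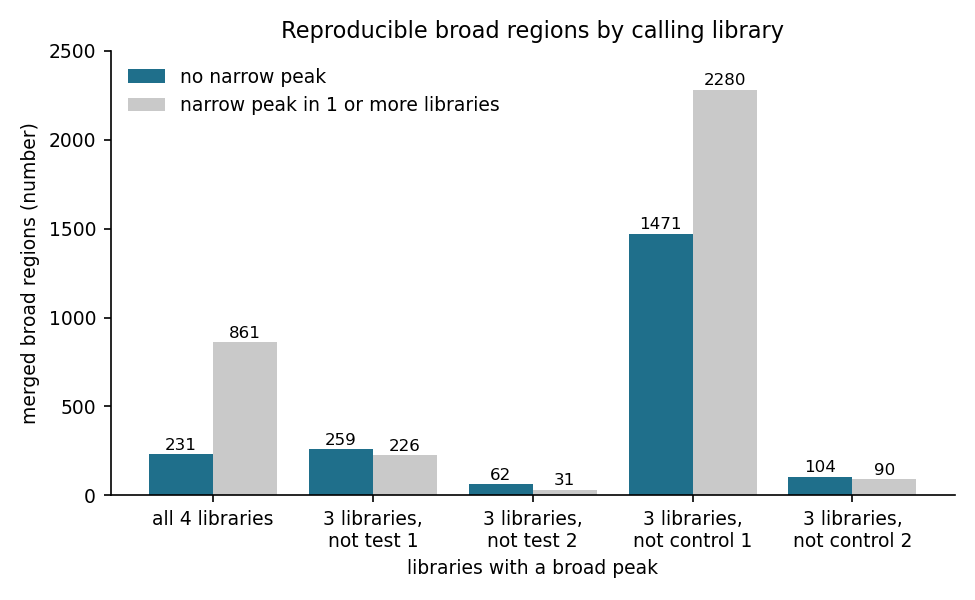
Number of reproducible broad regions (vertical axis) by the libraries that called them (horizontal axis), for narrow-free regions and for regions with a narrow peak in 1 or more libraries. Most regions of both kinds, 1471 and 2280, lacked a call in control 1 only, and of those called in all 4 libraries 231 were narrow-free and 861 were not.

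A missing call seldom had a peak of the same library close by. Only 13 of the 1471 regions without a control 1 call had a broad peak of control 1 within 1 kb, and the median distance to the nearest one was 64644 bp. The share was 0.884% for control 1, 2.32% for test 1, 3.23% for test 2 and 3.85% for control 2. In regions with a narrow peak the shares were 1.01%, 3.98%, 6.45% and 5.56%. Signal below the calling threshold could not be measured, since a list holds only peaks that passed it.

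Narrow-free regions had a lower median fold enrichment than other reproducible regions in every library. The authors' fold enrichment is the pileup of fragments over the local background of the same library. Over the narrow-free regions that each library called, its median was 4.07 and 3.79 for the test libraries and 3.6 and 3.92 for the controls. Over regions with a narrow peak it was 4.67 and 4.21 for the test libraries and 3.75 and 4.52 for the controls. In control 1 the lower quartile went the other way, with 3.33 for narrow-free regions and 3.26 for the others. As a percentile within the library's own broad list, the narrow-free medians were 51.5 and 63.1 (test) and 59.1 and 60.2 (control), so the typical narrow-free peak lay above the middle of its list. Regions with a narrow peak stood at 71.6 and 80.1 (test) and 73.5 and 79.1 (control). No narrow-free region reached a fold enrichment above 8.75, and the highest of the others was 23.9.

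Narrow-free regions that control 1 did not call had higher fold enrichment than those called by all libraries. The 1471 absent from control 1 had median folds of 4.23 and 3.87 in the test libraries and 4.13 in control 2. The 231 regions of all 4 libraries had 3.64 and 3.67 in the test libraries, 3.55 in control 1 and 3.56 in control 2. The order was not particular to narrow-free regions. Regions of 3 libraries with a narrow peak, most of them absent from control 1, had 4.77 and 4.24 (test) and 4.59 in control 2. Those of all 4 libraries with a narrow peak had 4.20 and 4.11 (test) and 4.17 in control 2.

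Few narrow-free peaks had a high deposited −log10 q. Values of 5 and above were found at 458 of 1868 peaks of test 1 (24.5%, exact interval 22.6 to 26.5) and 226 of 2065 peaks of test 2 (10.9%, 9.63 to 12.4). They were found at 47 of 656 peaks of control 1 (7.16%, 5.31 to 9.41) and 519 of 2023 peaks of control 2 (25.7%, 23.8 to 27.6). The replicates of a group thus lay farther apart than the groups. In regions with a narrow peak the shares were 61.6% and 46.2% (test) and 44.7% and 65.7% (control). The fragments behind these peaks were few, with a median pileup over narrow-free regions of 13.4 and 12.1 (test) and 11.4 and 14.1 (control) and a lowest value of 8 in every library.

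The local background was lower around narrow-free regions. Recovered from pileup and fold enrichment, it had a median of 2.32 and 2.27 fragments (test) and 2.33 and 2.65 (control). Around reproducible regions with a narrow peak it was 3.18 and 3.15 (test) and 3.99 and 3.73 (control). The genome-wide average computed from the fragment totals was 1.48 and 1.56 (test) and 1.53 and 1.72 (control). In both sets the lowest recovered background was 1.48 and 1.57 (test) and 1.53 and 1.72 (control). No region lay below the average, so a median above it is no result. A background above 10 times that average was found at 7 of 1868 and 6 of 2065 narrow-free regions (test) and 8 of 656 and 8 of 2023 (control). Of the others it was found at 160 of 3262 and 184 of 3457 (test) and 179 of 1208 and 178 of 3398 (control). Most of these were regions called in all 4 libraries, which were a larger part of the others. In regions of 3 libraries the counts were 1 to 2 per library for narrow-free regions and 6 to 15 for the others.

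**Figure D2:**
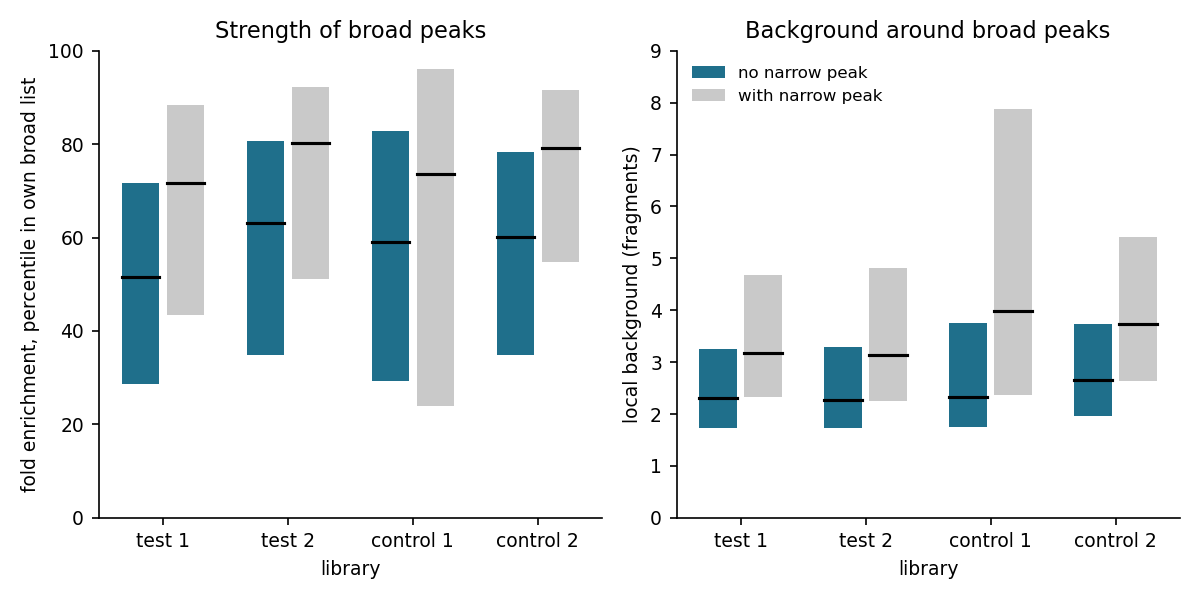
Percentile of fold enrichment within the library's own broad list (left) and local background in fragments (right), by library. Bars run from the lower to the upper quartile with the median as a black line, for narrow-free regions and for reproducible regions with a narrow peak. The narrow-free medians, 51.5 to 63.1 on the left and 2.27 to 2.65 on the right, lie under the others in all 4 libraries.

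Width differed little between the sets, except among the widest regions of all 4 libraries. The median width was 598 bp for narrow-free regions (quartiles 461 and 807.5, range 201 to 2920) and 633 bp for regions with a narrow peak (474 and 884, range 188 to 7003). From 300 to 1500 bp the narrow-free share of reproducible regions was 35.6% to 41.8% in each width class, 33.7% below 300 bp and 17.2% among the 256 wider regions. In regions of all 4 libraries it was 23.3% to 24.4% from 300 to 1500 bp and 9.55% of 178 above. Below 300 bp it was 9.38%, which is only 3 of 32 regions. In regions of 3 libraries wider than 1500 bp it was 34.6%, against 41.2% to 43.9% from 300 to 1500 bp and 38.3% of 167 below. Together the narrow-free regions covered 1436 kb. The widest, chr2:91596736-91599655, measured 2920 bp and was called in all 4 libraries. The others of the 5 widest were chr19:7933465-7936363, absent from control 1, chr3:197826939-197829395 and chr14:19498565-19500987, both absent from test 1, and chr16:33238846-33241180. At chr19:7933465-7936363 the fold enrichment was 2.92 and 2.99 in the test libraries and 2.98 in control 2, at percentiles 3.46, 9.35 and 6.58 of their lists.

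In the 231 regions called in all 4 libraries the groups overlapped in the percentile of fold enrichment and in the bases covered, and not in fold enrichment itself. The median percentile of fold enrichment was 28.1 and 54.5 in the test libraries and 49.8 and 41.4 in the controls, so both controls lay between the test libraries. The test mean was 41.3 ± 18.7 and the control mean 45.6 ± 5.96 (SD, n = 2 libraries per group), a difference of -4.26 percentile points (exact two-sided permutation p = 1.0). Over the same 231 regions without control 1 the difference was -0.053. The bases covered by a library's peaks in a region had a median of 404 and 466 in the test libraries and 401 and 489 in the controls. The test mean was 435 ± 43.8 bp and the control mean 445 ± 62.2 bp (SD, n = 2), a difference of -10 bp (exact two-sided permutation p = 1.0). Over the same regions without control 1 it was -54 bp. On the log2 scale, the median fold enrichment was 1.86 and 1.88 in the test libraries and 1.83 in each control, so both test libraries lay above both controls. The difference of 0.04 (log2) exceeded the gap between the replicates of either group (exact two-sided permutation p = 0.333). Fold enrichment is not normalized between libraries. With 2 libraries in each group no p under 0.333 can be reached.

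Region by region, 46 of the 231 (19.9%, exact interval 15 to 25.7) had both control percentiles above both test percentiles, where 12.4% of all 1092 broad regions of 4 libraries did. The opposite order held in 19 (8.23%, 5.02 to 12.5), against 8.88% of the 1092. Either order held in 65 (28.1%), against 21.2%. The 231 are part of the 1092. Percentiles depend on the length of the list, which was shortest for test 1. With all lists shortened to the same length, 162 narrow-free regions were called in all 4 libraries, of which 20.4% were control-higher and 5.56% test-higher. The shares over all broad regions of 4 libraries were not taken with shortened lists, so these values have no reference.

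The regions with the largest gaps between the groups were taken by percentile, and their fold enrichments follow. At chr3:132378408-132379538 it was 3.54 and 3.26 in the test libraries and 3.72 and 4.04 in the controls. At chr1:52082736-52083315 it was 3.77 and 3.37 against 3.96 and 4.35. The groups did not overlap at either region, but the step between them was smaller than the difference between the replicates of each group. At chr8:96516-97916 it was 3.70 and 3.51 against 3.92 and 4.44. There the step was smaller than the difference between the controls and larger than that between the test libraries. In the other direction, chr1:142618587-142619432 had 4.11 and 3.90 in the test libraries and 3.40 and 3.44 in the controls. At chr2:87651571-87652264 the values were 4.34 and 4.15 against 3.51 and 3.48. At both, the step between the groups was larger than the replicate differences. At chr19:40023274-40023817 the values were 4.55 and 5.08 in the test libraries and 3.29 and 3.86 in the controls. Among the regions picked here for their gap, this was the widest step in fold enrichment. In percentile points, the gaps were 43.3, 38.4 and 36.6 at the control-higher regions, in the order given. They were 17.2, 16.3 and 10.6 at the test-higher regions. All were picked for their gap, so no test was made.

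Control 1 ranked the regions least like the other libraries. Across the 231 regions, Spearman's rho of the percentiles was 0.76 between the test libraries and 0.75 between each of them and control 2. With control 1 it was 0.56 for test 1, 0.65 for test 2 and 0.54 for control 2. Regions share their libraries and are not replicates, so these are descriptions. In the 861 regions of 4 libraries with a narrow peak, rho was 0.90 to 0.92 without control 1 and 0.52 to 0.65 with it. The extents of peaks overlapped less in the narrow-free regions. The median share of bases common to a pair of libraries, of the bases either covered, was 59.5% to 60.6% in pairs without control 1 and 42.3% to 50% in pairs with it. With a narrow peak it was 80.6% to 82.2% and 58.5% to 63.7%. In 182 of the 231 regions at least 1 base was covered in all 4 libraries.

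The highest ranked narrow-free region of all 4 libraries, by the lowest of its 4 percentiles, was chr22:18688275-18688775. Its fold enrichment was 7.12 and 5.33 in the test libraries and 6.56 and 6.83 in the controls, and the nearest narrow peak lay 2139 bp away. The next, chr17:630854-631241, had 6.12 and 5.14 against 5.37 and 6.09. At both, the groups overlapped. At chr2:89830463-89830904 the fold enrichment was 6.02 and 6.08 in the test libraries and 6.43 and 7.92 in the controls, so both controls were higher, with a narrow peak 911 bp away. Control 1 was highest at chr1:236876909-236878296, with 8.40 against 5.54 in control 2 and 5.25 and 6.33 in the test libraries. It was also highest at chr9:140739558-140740830, with 6.84 against 4.45 in control 2 and 4.95 and 5.07 in the test libraries. The others of the 10 highest ranked were chr17:51183243-51183733, chr16:32127887-32129253, chr1:242011114-242011794, chr7:158611148-158611660 and chr8:73920876-73921382. On chromosome 8 the fold enrichment was 6.25 and 6.94 in the test libraries and 4.40 and 4.47 in the controls. On chromosome 16 it was 5.41 and 5.92 against 4.67 and 4.37. On chromosome 7 it was 4.60 and 5.07 against 3.72 and 4.27. Both test libraries were higher there in fold enrichment, but the percentiles of the groups overlapped. At chr17:51183243-51183733 and chr1:242011114-242011794 the groups overlapped in fold enrichment. Of these 10, chr17:51183243-51183733 lay farthest from any narrow peak, at 1845403 bp.

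The 3 highest ranked regions absent from control 1 had lowest percentiles of 97.2 to 98.5. Their ranking takes the lowest of 3 values among 1471 regions, so it is not comparable with the ranking of the 231 regions of all 4 libraries. At chr14:50329260-50329851 the fold enrichment was 7.51 and 7.39 in the test libraries and 6.96 in control 2, at percentiles 98.5, 99.4 and 98.8 of their lists. At chr2:26568644-26569050 it was 7.79 and 6.45, with 7.14 in control 2. At chr7:25901830-25902437 it was 7.37 and 5.89, with 8.75 in control 2. Their peaks had pileups of 14.7 to 30.5 fragments, and the nearest narrow peaks lay 241756, 100826 and 4975 bp away. These regions were thus near the top of 3 broad lists without a narrow call in any library.

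Regions absent from another library ranked lower than those absent from control 1. Their median lowest percentile, again of 3 values, was 26.3 for test 1, 22.8 for test 2 and 18.4 for control 2, against 45.7 for control 1. The highest ranked without test 1 was chr21:33157090-33157579, with 4.78 in test 2 and 5.47 and 5.16 in the controls, followed by chr21:41346490-41346999 and chr1:143526164-143526678. Without test 2 it was chr9:67364402-67364893, with 4.68 in test 1 and 4.28 and 4.53 in the controls, followed by chr16:33585314-33585931 and chr3:77874517-77875007. Without control 2 it was chr7:63634774-63635586, with 4.56 and 4.04 in the test libraries and 4.07 in control 1, followed by chr20:41804387-41804952 and chr1:42707023-42707595.

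Most narrow-free regions (80.6%) lay more than 10 kb from any narrow peak. The median distance to the nearest narrow peak of any library was 39.5 kb (quartiles 13.6 and 105 kb). A narrow peak lay within 500 bp of 13 regions and within 1 kb of 36 (1.69%), and 554 (26.0%) lay more than 100 kb from any. To narrow peaks of a single library, the median distance was 222 and 174 kb for the test libraries and 85.3 and 128 kb for the controls. For regions without a narrow peak that only 1 library had called, it was 285 and 203 kb (test) and 67.5 and 164 kb (control). To a narrow peak of any library, the median was 16061 bp for narrow-free regions of all 4 libraries and 48704 bp for those absent from control 1. It was 34026 bp for those absent from test 1, 18357 bp for test 2 and 19171.5 bp for control 2. The farthest was chr13:45915343-45915802, at 7.31 Mb, with a fold enrichment of 4.82 and 3.86 in the test libraries and 5.11 in control 2. It was followed by chr13:42680217-42680568, chr13:50018113-50018428, chr6:83777397-83777809 and chr4:126235937-126236283. All 5 were called in both test libraries and control 2 and not in control 1.

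**Figure D3:**
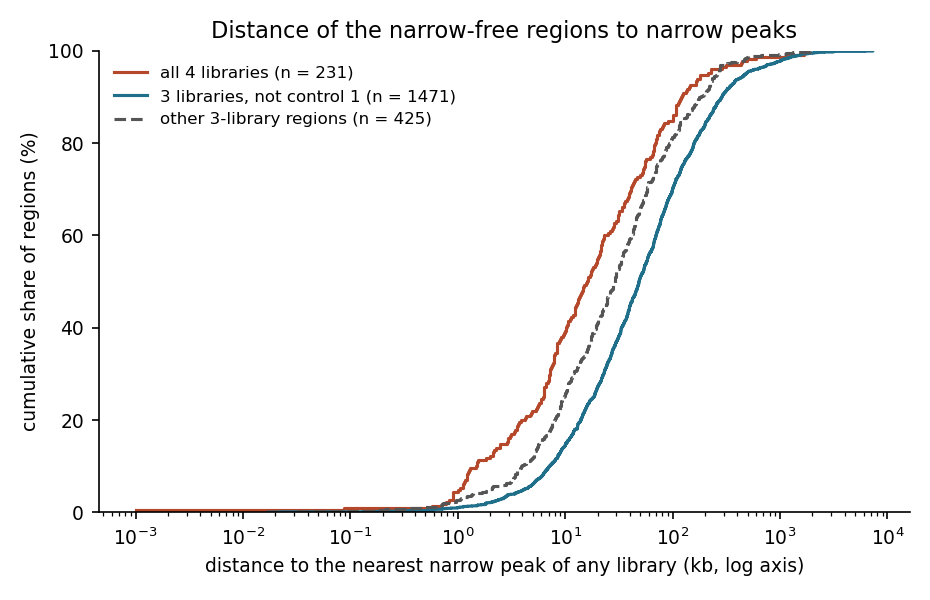
Cumulative share of narrow-free regions (vertical axis, percent) by distance to the nearest narrow peak of any library (horizontal axis, kb, log scale), split by the libraries that called the broad region. The medians of the 231 regions of all 4 libraries and of the 1471 absent from control 1 are 16061 and 48704 bp.

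At the edge of the rule, single bases decided membership. The region chr7:72299887-72300701 was kept although a narrow peak of control 1 began at the next base. A narrow peak of control 2 lay 17 bp from chr18:48724223-48724657 and another 22 bp from chr3:122512576-122513008. On the other side, chr19:56915309-56916197 was left out for 4 bases shared with a narrow peak of test 1. Narrow peaks of control 2 removed chr7:90893520-90895860 for 4 bases and chr1:178062524-178063653 for 9. The 6 narrow peaks had fold enrichments of 4.20 to 4.94 and −log10 q values of 1.73 to 2.73.

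Narrow-free regions were found on all 22 chromosomes, 26 to 259 on each. Their share of reproducible regions was highest on chromosome 15 (54.1%, exact interval 43.7 to 64.2), with 53 narrow-free regions and 45 others. Chromosome 13 followed at 50.4% (41.6 to 59.1) and chromosome 6 at 48.0% (41.4 to 54.7). It was lowest on chromosome 19, known for its density of genes (30.1%, 25.7 to 34.7), with 126 narrow-free regions and 293 others. Chromosome 17 had 30.1% (24.1 to 36.7) and chromosome 20 had 30.7% (24.5 to 37.3). Regions of a chromosome are not replicates, so no test was made.

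Calls of control 1 in narrow-free regions also differed by chromosome. Control 1 had called 55.4% of them on chromosome 20, 50% on chromosome 13 and 46.3% on chromosome 7, but 5.66% on chromosome 15, 7.46% on chromosome 12 and 11.8% on chromosome 6. In regions with a narrow peak the values for chromosomes 20, 13 and 7 were 43.5%, 53.7% and 33.7%, and for chromosomes 15, 12 and 6 they were 13.3%, 19.5% and 30.3%. The whole control 1 list was uneven as well. Chromosome 20 held 5.92% of it and 3.27% to 3.89% of the other lists, and chromosome 12 held 1.20% of it and 2.83% to 4.10% of the others. The part of this unevenness in the chromosome shares was not tested.

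**Figure D4:**
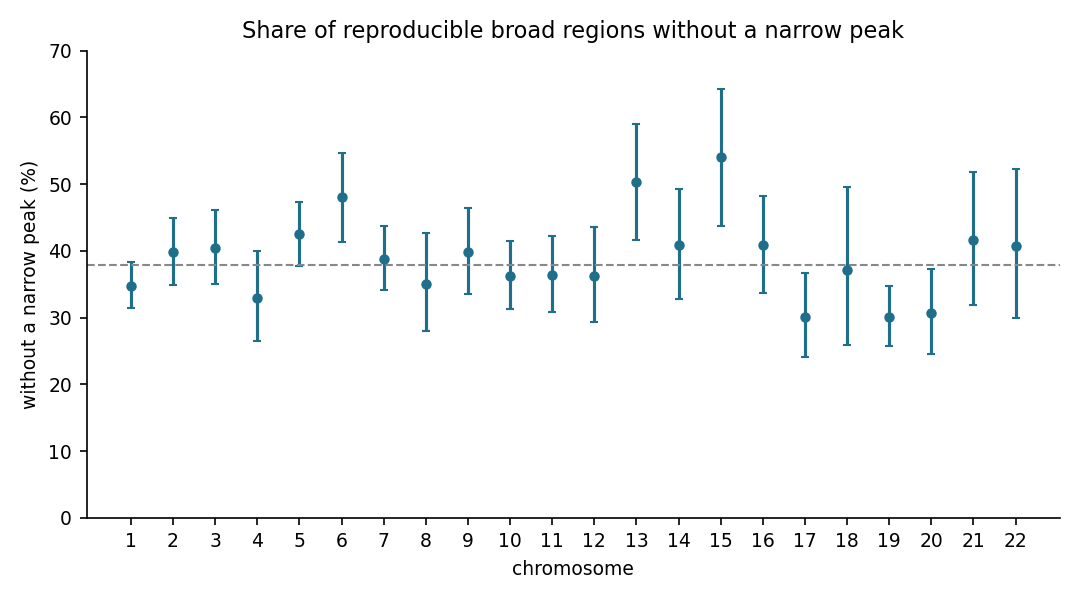
Narrow-free share of reproducible broad regions (vertical axis, percent) on each chromosome (horizontal axis). Points are shares with 95% exact binomial intervals, and the dashed line marks the 37.9% of all chromosomes together. Chromosomes 6, 13 and 15 lie above the line and chromosomes 17, 19 and 20 below it with their whole interval.

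Windows crowded with narrow peaks held a smaller share of the narrow-free regions than of the other reproducible regions. Dense windows were the 33 windows of 1 Mb with 5 or more narrow regions called in all 4 libraries. They held 76 narrow-free regions (3.57%, exact interval 2.83 to 4.45) and 296 of the 3488 others (8.49%, 7.58 to 9.46), against 2.74% of all merged broad regions. Since narrow peaks define the windows, this difference is partly built in. Among narrow-free regions the share was 13.9% in the 231 of all 4 libraries, 6.59% in the 425 of 3 libraries that included control 1 and 1.09% in the 1471 absent from control 1. Regions with a narrow peak had 26.4% in those of all 4 libraries and 0.965% in those absent from control 1.

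Most 1 Mb windows with a narrow-free region held no second one. Of 1195 such windows, 673 held a single region, and the median gap between neighbours on a chromosome was 524 kb. The fullest window, chr5:140000001-141000000, held 16. The next were chr16:33000001-34000000 with 10, chr19:37000001-38000000 with 9, and chr16:32000001-33000000 and chr9:69000001-70000000 with 8 each. In chr19:37000001-38000000, 17 more reproducible regions held a narrow peak. In chr7:91000001-92000000, with 7 narrow-free regions, none did. These windows were chosen with their values already known.

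In the fullest window, on chromosome 5, control 1 called most of the narrow-free regions. It had called 12 of the 16 (75%), against 30.5% of the narrow-free regions elsewhere. Control 2 had called 13, test 2 had called 15 and test 1 only 9, so here test 1 was the library most often missing. The long arm of chromosome 5 is known to carry the clustered protocadherin genes, which encode cell adhesion proteins, but which genes these regions lie in was not analysed here. The 12 regions called in control 1 had a median width of 959 bp and the other 4 of 478.5 bp.

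Median fold enrichment in this window was 3.64 and 3.70 in the test libraries and 3.71 and 3.6 in the controls. At chr5:140568509-140569117, its only region called in all 4 libraries, it was 3.57 and 4.52 in the test libraries and 4.19 and 4.08 in the controls, so the groups overlapped. At chr5:140187864-140189047, its widest, it was 3.78 in test 2 and 3.63 and 3.6 in the controls. The highest values were at chr5:140998516-140998881, absent from control 1, with 5.63 and 5.45 in the test libraries and 5.77 in control 2. Another 10 reproducible regions of this window held narrow peaks.

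**Figure D5:**
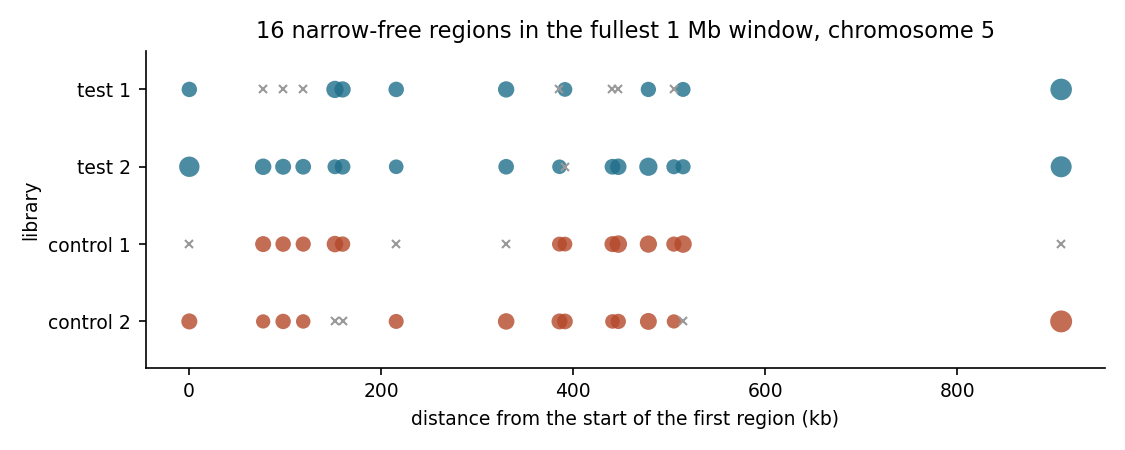
The 16 narrow-free regions of the fullest 1 Mb window, on chromosome 5, by distance from the start of the first region (horizontal axis, kb), with 1 line per library. Dots are called broad peaks, larger for a higher fold enrichment, and crosses mark regions the library did not call. Control 1 called 12 regions and test 1 called 9, and the region at the far right was called in the other 3 libraries but not in control 1.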

How the data were processed

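ATAC-seq peak lists of 4 libraries were used, 8 lists in all, grouped by the sample titles. Per the file headers, MACS2 2.2.7.1 called peaks library by library on paired-end fragments without a control sample, with all duplicates kept, an effective genome size of 2.7e+09 and a q threshold of 0.05. The submitters' processing notes name hg19 and cutadapt 3.2, Bowtie2 2.3.5.1, deepTools 3.5.1, Picard and edgeR 3.34.1, without roles in the sources used here. The deposited pileup is a coverage signal, in fragments over a peak. Fold enrichment, as deposited, is the ratio of pileup to local background, and deposited p and q values are on the −log10 scale. None is normalized between libraries, so they describe or rank peaks within a list. Kept duplicates add to the pileup.

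Positions are 1-based. Where a library had several peaks in a region, the one with the highest fold enrichment was taken. Local background was pileup plus 1, divided by fold enrichment, minus 1. Percentiles were taken within a library's broad list on chromosomes 1 to 22. Library medians were compared over all 6 assignments of libraries to groups (exact, two-sided). Shares have exact (Clopper-Pearson) 95% intervals. The members, lists and window definition were chosen with earlier results of these data known. Named regions are the highest ranked by lowest percentile, overall and per missing library, the widest, the farthest from narrow peaks, those with the largest gap between groups and those at the rule's edge. Windows were named for their count. Alternatives were a −log10 q of 5 or more, 50% overlap, merging within 100 bp, 500 bp free of narrow peaks, equal list lengths, leaving out dense windows or each library, a replicate block and log2 fold enrichment. The rule was tested on simulated data. Planned gene and sequence analyses were not run, because no hg19 annotation or genome was used here. The work used Python 3.11.15 with pandas 2.3.3, numpy 2.4.6, matplotlib 3.10.9 and scipy 1.17.1.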

Additional observations from a re-analysis of the deposited data

How the results depend on the processing

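The number of narrow-free regions stayed within 1.5 times of 2127 in 6 of 10 alternatives, between 1838 and 2153. It was 391 among peaks with a −log10 q of 5 or more. With 1 library left out, which asks for a call in all 3 others, it ranged from 319 (test 2 left out) to 1838 (control 1), with 516 for test 1 and 366 for control 2. The group difference in percentile of -4.26 ranged from -19.1 to 2.36 when the rule was applied without a library, with the positive value for test 1. It was -12.6 with equal list lengths. Over the same 231 regions, an alternative chosen after seeing the data, it ranged from -17.5 to 8.97 with a library left out, positive for test 1 only and -0.053 for control 1. In log2 fold enrichment it was 0.0403. The difference in covered bases of -10 bp became 20.5 bp with equal list lengths and ranged from -68 to 36 bp when the rule was applied without a library, with 36 bp for test 1 and 7 bp for control 2. Over the same 231 regions it ranged from -54 to 34 bp, with 21 bp for test 1 and 34 bp for control 2. With the replicate number as a block, these differences were -4.26 and -10 bp again (exact sign-flip p = 1.0). The labels give no shared batch for a number, so the pairs share only a number.

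The share of regions whose groups lay apart, 28.1%, was 46.7% at the stricter q (15 regions) and 50% to 77.9% when a library was left out, which compares 1 library with 2. The control-higher part was 40% at the stricter q and 23.8% to 57.7% with a library left out, and the test-higher part 12.2% to 27.3%. No share over all broad regions was taken under these alternatives, so these values cannot be read as particular to the narrow-free regions. The cause of the changes was not tested, beyond the fewer libraries or peaks that each alternative uses. The smallest exact permutation p was 0.333 throughout.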
